A study of Mus musculus with 9 samples.

Results

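The genes described here are 10 vascular adhesion and gut-homing molecules of mouse colon: Vcam1, Madcam1, Icam1, Icam2, Sele, Selp, Pecam1, Cdh5, Itga4 and Itgb7. They were taken as a named list and matched by symbol. All 10 were found among the 54491 genes of the expression table, and 8 of them passed the filter on low values and were tested. Sele and Selp did not pass.

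White blood cells leave the blood by rolling on selectins, stopping on immunoglobulin-type ligands that bind their integrins, and passing between endothelial cells. In the gut, MAdCAM-1 on venules of the mucosa and its lymphoid follicles captures lymphocytes that carry the integrin of the α4 and β7 chains. VCAM-1 binds α4 paired with β1, and ICAM-1 and ICAM-2 bind the β2 integrin LFA-1. PECAM-1 and VE-cadherin (Cdh5) sit at the junctions between endothelial cells. Several of the ligands are not restricted to vessels: VCAM-1 and MAdCAM-1 are also found on stromal cells of lymphoid follicles, ICAM-1 and VCAM-1 on macrophages, and PECAM-1, ICAM-2 and P-selectin on platelets.

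RNA was sequenced from colon of C57BL/6 mice, divided at 6 weeks of age into 3 groups of 15 and sampled at postnatal day 98. One group had a high-fat diet (HFD) and the gut bacterium Papillibacter cinnamivorans by gavage, that is by a tube into the stomach, and is called the P. cinnamivorans group here (libraries 1, 3 and 4). One had the high-fat diet (HFD group, libraries 1, 2 and 4), and one was the control (libraries 1, 2 and 3). The labels name gavage for the P. cinnamivorans group alone, so the gavage and the bacterium cannot be told apart. They do not say whether each library is a separate mouse, so p-values measure the spread between libraries. Where along the colon the tissue came from is not stated either.

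The values are FPKM, the fragments of a gene scaled by its length and by the size of the library. Relative depth, read from the steps between low FPKM values, ranged from 0.822 to 1.10 of that of control library 1. Groups were compared with limma on log2(FPKM + 1) across 17907 genes, and a gene was called at a Benjamini-Hochberg adjusted p below 0.05. Log2 differences are on that scale, which understates the change of low genes. HFD is one side of the first 2 comparisons below, so they share its 3 libraries. The libraries also differed beyond the adhesion genes. Summed posterior Hox genes, whose level marks the position along the gut, stood at 26.6 to 34.3 FPKM in the P. cinnamivorans group, 281 to 301 FPKM in HFD and 12.0 to 71.9 FPKM in controls. Of 8 tested Hox genes, 5 were called higher and 0 called lower in HFD against control, and 0 were higher and 4 lower in the P. cinnamivorans group than in HFD. Of all genes tested, 19.7% and 12.1% were called in these comparisons. Hoxd13, a gene of the hindmost gut, averaged 0.0619 ± 0.0697 FPKM in the P. cinnamivorans group, 84.3 ± 10.9 FPKM in HFD and 0.159 ± 0.252 FPKM in controls (SD, n = 3 each). The part of this difference in the results below was not tested.

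The sequence just before the start of 6 of the 10 genes was at hand in RefSeq's annotation of GRCm38.p6. The 3 shown are the gut ligand, the ligand with the most matches when each strand is counted, and the endothelial selectin. By place alone, Icam1 and Madcam1 have equally many. All 3 are given on the plus strand, 5′ to 3′, each 250 bases long and ending at the base before the start. Capitals mark matches to GGNNNTTCC, a short form of the site bound by NF-κB, on either strand. The motif was chosen after the promoters had been read.
Madcam1: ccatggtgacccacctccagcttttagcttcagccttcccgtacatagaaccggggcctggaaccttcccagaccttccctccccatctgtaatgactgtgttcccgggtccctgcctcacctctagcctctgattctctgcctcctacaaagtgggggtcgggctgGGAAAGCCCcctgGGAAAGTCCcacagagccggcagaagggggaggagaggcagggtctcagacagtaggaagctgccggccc
Icam1: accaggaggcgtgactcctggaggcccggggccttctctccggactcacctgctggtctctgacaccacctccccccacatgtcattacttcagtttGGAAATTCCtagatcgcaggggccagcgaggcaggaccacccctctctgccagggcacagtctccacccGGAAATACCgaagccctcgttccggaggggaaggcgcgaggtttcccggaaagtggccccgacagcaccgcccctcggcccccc
Sele: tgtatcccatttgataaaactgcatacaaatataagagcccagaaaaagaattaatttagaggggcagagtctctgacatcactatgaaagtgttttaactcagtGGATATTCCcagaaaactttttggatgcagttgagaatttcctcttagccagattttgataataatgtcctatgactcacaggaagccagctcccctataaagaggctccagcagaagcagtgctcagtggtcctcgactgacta
The windows are chr10:79664309-79664558 for Madcam1, chr9:21015690-21015939 for Icam1 and chr1:164047984-164048233 for Sele.

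In Madcam1 the motif matched at 2 places on the minus strand, at -83 to -75 and at -70 to -62 from the start, 4 bases apart. In Icam1 it matched on both strands at -153 to -145 and on the minus strand at -84 to -76. Sele had 1 match, at -145 to -137, and Selp had 1 at -14 to -6 on the minus strand. The windows of Itga4 and Itgb7 held none. Of all 32851 promoter windows of 300 bases, 18.5% held the motif and 2.16% held it at 2 or more places. These are matches of letters and say nothing of binding.

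Compared with control colon, HFD colon had higher levels of 6 adhesion genes: the gut ligand Madcam1, the integrin ligands Vcam1, Icam1 and Icam2, and both chains of the gut-homing integrin, Itga4 and Itgb7. Their mean FPKM was 2.32 to 3.74 times that of controls. The junction genes Pecam1 and Cdh5 did not pass the test. Thus 6 of 8 tested members were called higher and 0 lower, with a median log2 difference of 1.08; of all genes tested, 19.7% were called, 10.6% higher and 9.11% lower, and the median was -0.0011. In 7 of the 8, all but Cdh5, the HFD libraries did not overlap the control libraries, as in 42.1% of all genes tested.

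In the P. cinnamivorans group, 7 of 8 tested members were called lower than in HFD and 0 higher, with a median log2 difference of -0.84. Of all genes tested, 12.1% were called, 4.54% higher and 7.6% lower, and the median was -0.0138. All 8 members had libraries that did not overlap between these groups, as 39% of all genes did. The count depended on single libraries: it was 2, 3 and 4 without HFD library 1, 2 and 4, and 4 without library 1 of the P. cinnamivorans group. Vcam1 and Madcam1 stayed called in each of these. Against control, 0 of 8 members were called in the P. cinnamivorans group by limma, against 1.11% of all genes (0.262% higher and 0.843% lower). At an unadjusted p below 0.05 there were 4, all higher, namely Vcam1, Icam2, Itga4 and Itgb7. The share of all genes at this looser threshold was not counted, here or below. The 4 can therefore not be set beside the 1.11%. In 3 of the 8, Vcam1, Icam2 and Itgb7, the libraries of these groups did not overlap, as in 21.7% of all genes.

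**Figure D1:**
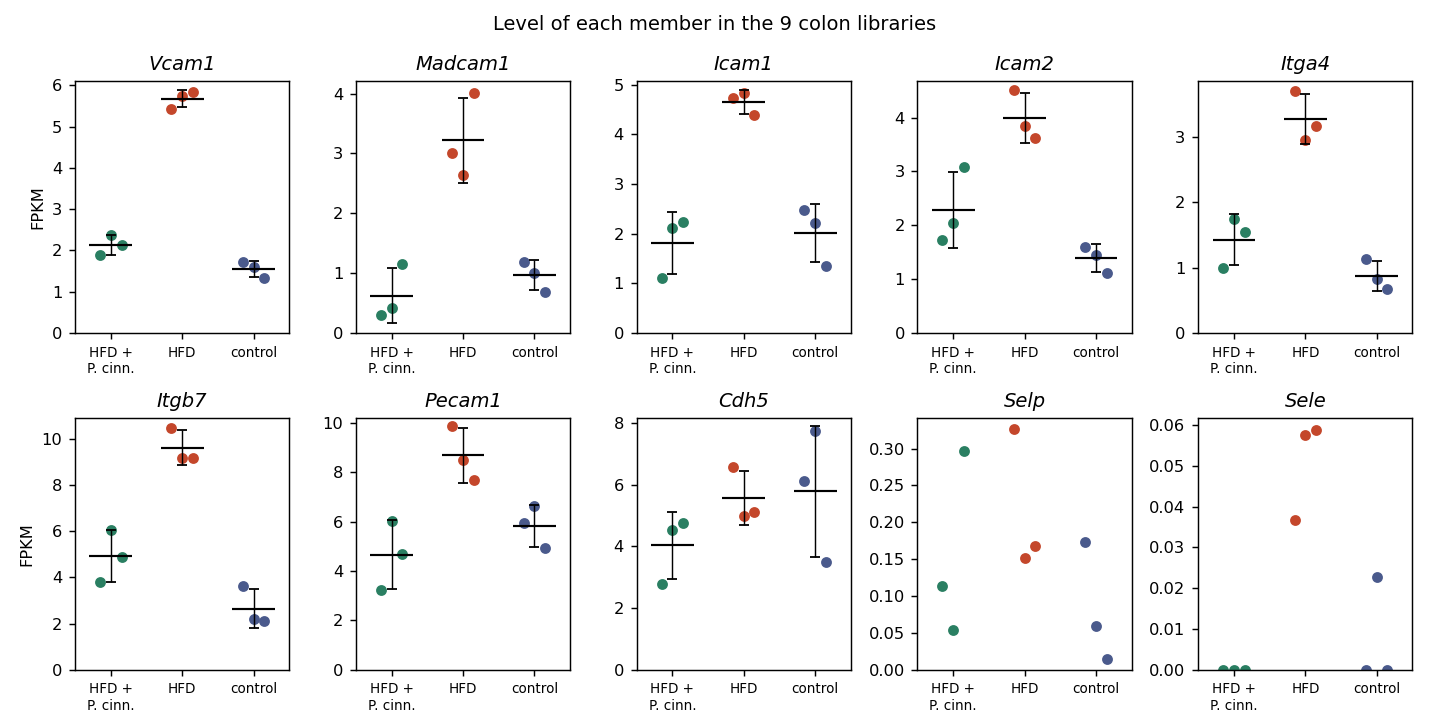
FPKM of each of the 10 genes in the 9 libraries, with 1 point per library and groups from left to right HFD with P. cinnamivorans, HFD and control; lines and bars are means ± SD (n = 3), left out for Selp and Sele. The 3 HFD libraries stand above both other groups in Vcam1, Madcam1, Icam1, Icam2, Itga4, Itgb7 and Pecam1, and Cdh5 of HFD and control overlap.

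Vcam1, which holds lymphocytes and monocytes through α4 integrins, stood at 1.90, 2.37 and 2.14 FPKM in the P. cinnamivorans libraries, at 5.44, 5.74 and 5.83 FPKM in the HFD libraries and at 1.73, 1.59 and 1.33 FPKM in the controls. The 3 groups did not overlap, and HFD stood far above both others. The log2 difference of HFD and control was 1.39 (SE 0.11, limma adjusted p = 0.000147), and the HFD mean was 3.66 times the control mean. The P. cinnamivorans group was lower than HFD by a log2 difference of -1.09 (SE 0.11, limma adjusted p = 0.00054). Its difference from control, 0.30, did not pass (limma adjusted p = 0.195), though all 3 of its libraries were above all 3 controls. Its values rest on the smallest whole numbers of fragments that the FPKM steps allow, 919 summed over the P. cinnamivorans libraries, 2725 over HFD and 654 over controls.

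Madcam1, the vascular ligand of the α4β7 integrin, was the lowest of the called ligands. It stood at 0.299, 0.418 and 1.15 FPKM in the P. cinnamivorans libraries, at 3.01, 2.64 and 4.02 FPKM in HFD and at 1.19, 1.01 and 0.690 FPKM in controls. HFD stood apart from both other groups, which overlapped each other. HFD exceeded control by a log2 difference of 1.10 (SE 0.22, limma adjusted p = 0.00914), and the HFD mean was 3.35 times the control mean. Between the P. cinnamivorans group and HFD it was -1.40 (SE 0.22, limma adjusted p = 0.00369), the most negative of the 8, and the mean was 0.193 of the HFD mean. The fragments were few, 6, 10 and 29 in the P. cinnamivorans libraries, 81, 68 and 101 in HFD and 29, 22 and 15 in controls. The summed 45 fragments of the P. cinnamivorans group have a 95% Poisson interval of 32.8 to 60.2, the 250 of HFD one of 220.0 to 283 and the 66 of controls one of 51.0 to 84.0, for counting error only. Within the P. cinnamivorans group, library 4 was well above the other pair and close to the controls.

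Icam1, which inflamed endothelium and many leukocytes carry and which binds β2 integrins, stood at 1.10, 2.12 and 2.23 FPKM in the P. cinnamivorans libraries, at 4.73, 4.83 and 4.39 FPKM in HFD and at 2.47, 2.21 and 1.35 FPKM in controls. HFD was tight and high, and the other groups overlapped. HFD exceeded control by a log2 difference of 0.93 (SE 0.20, limma adjusted p = 0.0139). That call was lost without HFD library 1 (limma adjusted p = 0.0538) or 2 (0.0527) and with the replicate number as a block (0.0881). Between the P. cinnamivorans group and HFD the log2 difference was -1.03 (SE 0.20, limma adjusted p = 0.0116). It too was lost without HFD library 1 (adjusted p = 0.0532) or 2 (0.0551) and with the replicate number as a block (0.0876). Against control it was -0.10, with a 95% interval of -0.56 to 0.36 (limma adjusted p = 0.834).

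Icam2, which resting endothelium carries, stood at 1.73, 2.05 and 3.08 FPKM in the P. cinnamivorans libraries, at 4.51, 3.84 and 3.63 FPKM in HFD and at 1.61, 1.46 and 1.11 FPKM in controls. The 3 groups formed 3 separate ranges, with the P. cinnamivorans libraries between the others. For HFD against control the log2 difference was 1.06 (SE 0.17, limma adjusted p = 0.00352), and HFD averaged 2.87 times the control. Between the P. cinnamivorans group and HFD it was -0.62 (limma adjusted p = 0.0465). This was the call nearest the threshold, held in 8 of 20 other settings, and it was lost without any 1 HFD library, without P. cinnamivorans library 1 or 3 and without control library 2.

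**Figure D2:**
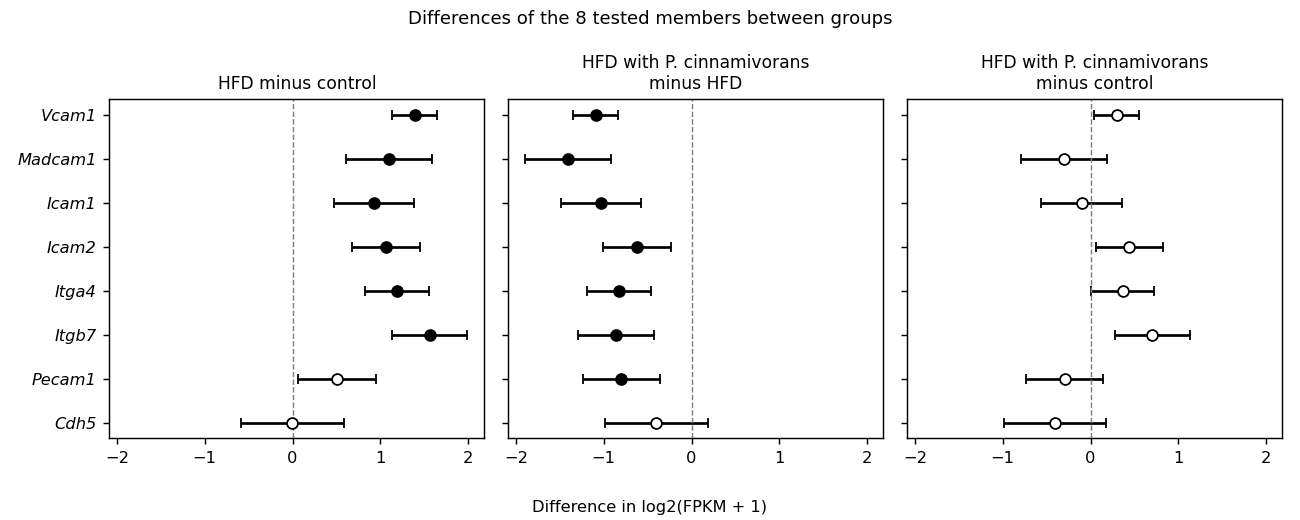
Log2 difference of each of the 8 tested genes (horizontal axis, log2(FPKM + 1)) with its 95% interval, for HFD minus control, HFD with P. cinnamivorans minus HFD, and HFD with P. cinnamivorans minus control; filled points were called. In the first panel 6 intervals of called genes lie above 0, in the second 7 lie below 0, and in the third no gene was called.

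The endothelial selectins, which start rolling, were near the limit of detection. Sele, made by inflamed endothelium, was listed at 0 in all 3 P. cinnamivorans libraries, at 0.0366, 0.0574 and 0.0588 FPKM in HFD and at 0, 0.0227 and 0 FPKM in controls. These values are 2, 3 and 3 fragments in HFD and 1 fragment in control library 2, and a count of 0 allows up to 3 fragments in a library. Selp, stored in endothelial cells and platelets, stood at 0.113, 0.0544 and 0.297 FPKM in the P. cinnamivorans libraries, at 0.326, 0.152 and 0.168 FPKM in HFD and at 0.173, 0.0598 and 0.0150 FPKM in controls. Every group overlapped every other in Selp. In Sele the HFD libraries stood above all others, but on no more fragments than a count of 0 allows. In a fit with no filter, the limma adjusted p for HFD against control was 0.155 for Sele and 0.356 for Selp. That fit cannot decide whether either gene differed, because log2(FPKM + 1) flattens differences at such low values.

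Pecam1, a junction molecule also on platelets and leukocytes, is made by all blood vessels. It stood at 3.25, 6.03 and 4.70 FPKM in the P. cinnamivorans libraries, at 9.88, 8.51 and 7.68 FPKM in HFD and at 5.93, 6.63 and 4.92 FPKM in controls. HFD did not overlap control, yet the log2 difference of 0.51 (SE 0.19) did not pass (limma adjusted p = 0.0987). Between the P. cinnamivorans group and HFD it was -0.80 (SE 0.19, limma adjusted p = 0.0296), held in 12 of 20 other settings and lost without any 1 HFD library or without P. cinnamivorans library 1 or 4.

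Cdh5, the cadherin that defines endothelial junctions, stood at 2.79, 4.54 and 4.75 FPKM in the P. cinnamivorans libraries, at 6.57, 4.99 and 5.12 FPKM in HFD and at 6.11, 7.72 and 3.50 FPKM in controls. The controls spread over the whole range of HFD. The log2 difference of HFD and control was -0.0034, with a 95% interval of -0.59 to 0.58 (limma adjusted p = 0.995), which leaves room for a change of either sign. Between the P. cinnamivorans group and HFD it was -0.40 (limma adjusted p = 0.361).

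Itga4, the α4 chain of leukocyte integrins, stood at 0.988, 1.73 and 1.55 FPKM in the P. cinnamivorans libraries, at 3.70, 2.94 and 3.17 FPKM in HFD and at 1.13, 0.821 and 0.676 FPKM in controls. HFD stood apart from both other groups. For HFD against control the log2 difference was 1.19 (SE 0.16, limma adjusted p = 0.00149), and that of the P. cinnamivorans group and HFD was -0.83 (SE 0.16, limma adjusted p = 0.0108). The second of these calls was lost without HFD library 1 (adjusted p = 0.06) and with the replicate number as a block (0.0699).

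Itgb7, the β7 chain, stood at 3.82, 6.07 and 4.87 FPKM in the P. cinnamivorans libraries, at 10.5, 9.16 and 9.20 FPKM in HFD and at 3.61, 2.21 and 2.12 FPKM in controls. The 3 groups formed 3 separate ranges. The log2 difference of HFD and control was 1.56 (SE 0.19, limma adjusted p = 0.000933), the largest of the 8, and HFD averaged 3.63 times the control. Between the P. cinnamivorans group and HFD it was -0.86 (SE 0.19, limma adjusted p = 0.02), held in 12 of 20 other settings. That call was lost without HFD library 1, 2 or 4 (adjusted p = 0.0891, 0.0676 and 0.0599), without P. cinnamivorans library 1 or 4 (0.0725 and 0.0612) and with the replicate number as a block (0.0854). Against control the P. cinnamivorans group was higher by 0.70, which did not pass (limma adjusted p = 0.0944) unless control library 1 was left out (0.88, adjusted p = 0.028).

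The levels of the integrin chains can be set beside those of their partners. Itgb7 over Itga4, both in FPKM, averaged 3.51 ± 0.36 in the P. cinnamivorans group, 2.95 ± 0.14 in HFD and 3.01 ± 0.28 in controls (SD, n = 3 each). HFD and controls overlapped in this ratio. Itgae, the αE chain that pairs with β7 on cells in the epithelium, averaged 2.78 ± 0.25 FPKM in the P. cinnamivorans group, 2.90 ± 0.14 FPKM in HFD and 1.52 ± 0.79 FPKM in controls, and its log2 difference of HFD and control, 0.68, did not pass (limma adjusted p = 0.0564). Itgb1, the β1 chain that pairs with α4 and is made by most cells, averaged 102 ± 16.7 FPKM in the P. cinnamivorans group, 81.5 ± 3.86 FPKM in HFD and 126 ± 35.6 FPKM in controls (log2 difference of HFD and control -0.58, limma adjusted p = 0.0804). The LFA-1 chains, the counter-receptor of Icam1 and Icam2, were called: Itgal averaged 2.03 ± 0.53 FPKM in the P. cinnamivorans group, 6.22 ± 0.71 FPKM in HFD and 1.31 ± 0.28 FPKM in controls. Its log2 difference was 1.65 for HFD against control (limma adjusted p = 0.000339) and -1.26 for the P. cinnamivorans group against HFD (limma adjusted p = 0.00149). Itgb2 had log2 differences of 1.53 (limma adjusted p = 0.000754) and -1.42 (limma adjusted p = 0.0014) in the same 2 comparisons. Itgam, the αM chain, did not pass (0.53, limma adjusted p = 0.0895).

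The selectin ligands did not all go the same way. Selplg, the leukocyte ligand of P-selectin, averaged 2.82 ± 1.28 FPKM in the P. cinnamivorans group, 7.11 ± 0.46 FPKM in HFD and 2.54 ± 0.15 FPKM in controls (SD, n = 3 each). Its log2 difference was 1.19 for HFD against control (limma adjusted p = 0.00503) and -1.14 for the P. cinnamivorans group against HFD (limma adjusted p = 0.00796). Cd44, a selectin ligand and hyaluronan receptor of many cell types, averaged 22.8 ± 3.03 FPKM in the P. cinnamivorans group, 11.1 ± 0.52 FPKM in HFD and 14.7 ± 1.24 FPKM in controls. Its log2 difference was -0.38 for HFD against control, which did not pass (limma adjusted p = 0.0629), and 0.97 for the P. cinnamivorans group against HFD (limma adjusted p = 0.00145). Cd44 and Glycam1, a mucin-like glycoprotein of high endothelial venules, were singled out after their values had been seen. Glycam1 had 15, 14 and 16 fragments in the HFD libraries and was listed at 0 in the 3 P. cinnamivorans libraries and the 3 controls, where a count of 0 allows up to 3 fragments in each library.

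Of all genes tested, 10.6% were called higher and 9.11% lower in HFD against control. In the P. cinnamivorans group against HFD, 4.54% were called higher and 7.6% lower. The lists below are to be read beside these shares. Of 24 tested other adhesion and selectin-ligand genes, 6 were called higher and 2 called lower in HFD against control, and 2 were higher and 5 lower in the P. cinnamivorans group than in HFD. Cd47 (log2 difference 0.66, limma adjusted p = 0.0035) and Alcam (0.86, limma adjusted p = 0.00372) were among the higher genes in HFD. Of 26 tested other integrin and leukocyte adhesion genes, 8 were called higher and 1 called lower in HFD against control, and 1 was higher and 7 lower in the P. cinnamivorans group than in HFD. Of 17 tested gut-homing receptors and chemokines, 11 were called higher and 1 called lower in HFD against control, and 1 was higher and 10 lower in the P. cinnamivorans group than in HFD. These include Ccl20 and its receptor Ccr6, which draw lymphocytes to follicles: Ccl20 averaged 1.48 ± 0.76 FPKM in the P. cinnamivorans group, 7.75 ± 0.43 FPKM in HFD and 0.852 ± 0.46 FPKM in controls. Ccl19, a chemokine of lymphoid stroma, had the highest positive log2 difference of this list in HFD against control (2.48, limma adjusted p = 3e-04). The 1 gene called the other way, named after its values had been seen, was Aldh1a1, an enzyme that makes retinoic acid, with log2 differences of -3.49 for HFD against control (limma adjusted p = 0.00297) and 3.52 for the P. cinnamivorans group against HFD (limma adjusted p = 0.00355). Of 18 tested NF-κB targets, 9 were called higher and 0 called lower in HFD against control, among them Nfkbie (1.16, limma adjusted p = 0.000426) and Birc3 (1.14, limma adjusted p = 0.000622), and 0 were higher and 8 lower in the P. cinnamivorans group than in HFD.

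**Figure D3:**
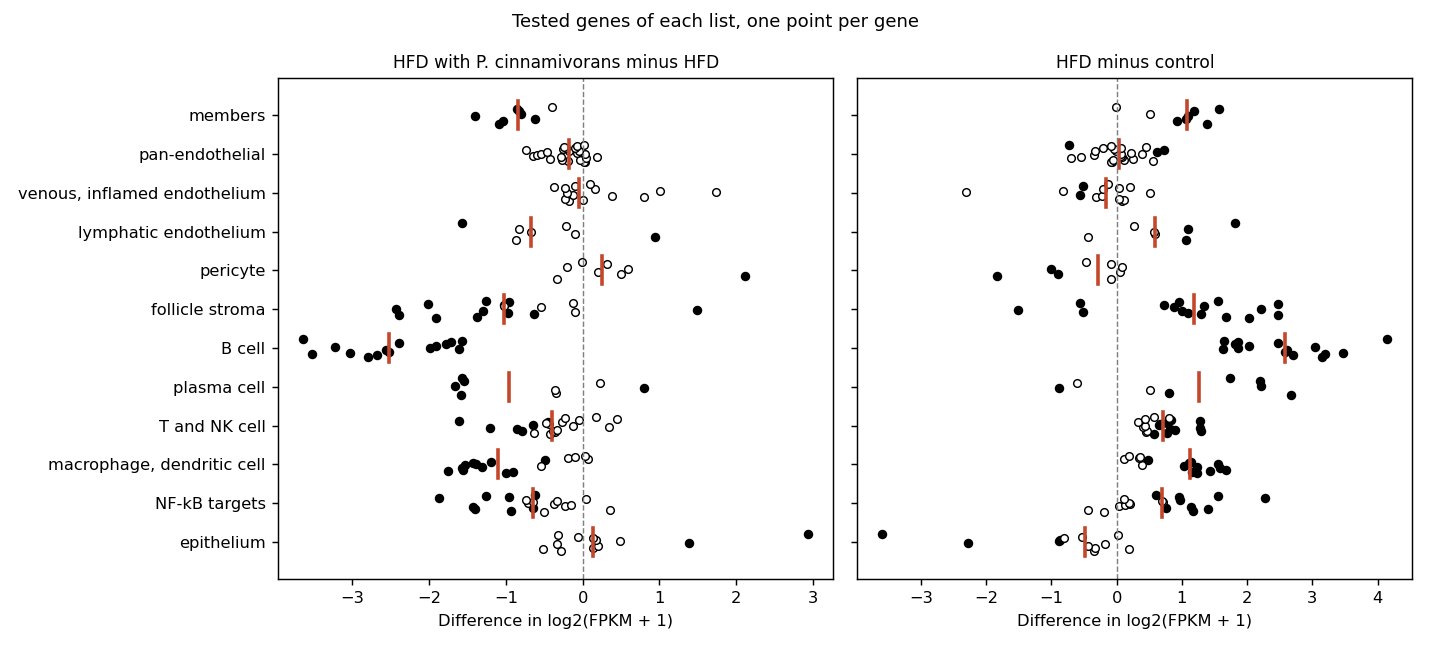
Log2 difference of each tested gene (horizontal axis, log2(FPKM + 1)) in each list, with HFD with P. cinnamivorans minus HFD on the left and HFD minus control on the right; filled points were called and the red bar is the median of the list. In HFD minus control the medians are 1.08 for the members, 0.03 for pan-endothelial genes and 2.58 for B cell genes.

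Genes of endothelium in general were called no more often than all genes tested, of which 19.7% were called in HFD against control and 12.1% in the P. cinnamivorans group against HFD. The pan-endothelial genes were listed as markers of vessels in general, and whether each is independent of vessel type or state was not tested. Of 24 tested, 2 were higher (Mmrn2 and Cd93) and 1 lower (Gpihbp1) in HFD than in control, with a median log2 difference of 0.03. Against HFD, 0 were called in the P. cinnamivorans group by limma (0 higher and 4 lower at an unadjusted p below 0.05), and the median was -0.18. Their summed FPKM was 60.7 to 91.1 in the P. cinnamivorans group, 97.5 to 108 in HFD and 76.8 to 116 in controls. Of 14 genes of venous and inflamed endothelium, 0 were called higher and 2 called lower in HFD against control, namely Ltbr and Tnfrsf1a, which are receptors that many cell types carry. The summed FPKM of this list was 279 to 298 in the P. cinnamivorans group, 191 to 229 in HFD and 259 to 452 in controls. It was lowest in HFD, but a sum follows its most abundant genes. In HFD against control 12 of the 14 genes were not called, and the median log2 difference was -0.17. Of 7 tested lymphatic genes, 3 were called higher and 0 lower in HFD against control, and 1 was higher and 1 lower in the P. cinnamivorans group than in HFD. The list's summed FPKM was 43.9 to 109 in the P. cinnamivorans group, 155 to 185 in HFD and 36.3 to 79.6 in controls. Most of the HFD sum was 1 gene, Ccl21a (122 to 149 FPKM), which is also in the gut-homing list. In a bulk tissue, fewer cells of a type and less RNA per cell cannot be told apart.

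Relative to the mean log2(FPKM + 1) of the pan-endothelial genes in the same library, Vcam1 was at -0.02, -0.02 and -0.24 in the P. cinnamivorans libraries, at 0.66, 0.84 and 0.87 in HFD and at -0.64, -0.69 and -0.42 in controls. The 3 groups did not overlap on this scale. A fit with each library shifted to the same pan-endothelial mean was added after the data had been seen. In it the same 6 members were called in HFD against control, with log2 differences of 0.91 for Icam1 to 1.55 for Itgb7. In the P. cinnamivorans group against HFD 3 were called, Vcam1 (-0.88, limma adjusted p = 0.01), Icam1 (-0.82, limma adjusted p = 0.0137) and Madcam1 (-1.19, limma adjusted p = 0.00448). Icam2, Pecam1, Itga4 and Itgb7 were not called there.

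**Figure D4:**
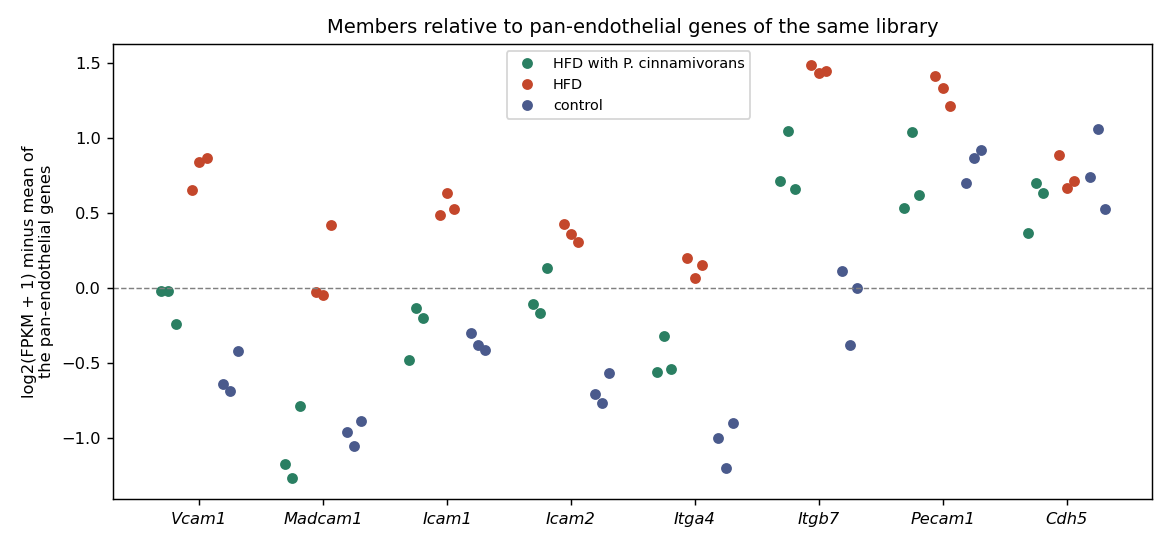
Log2(FPKM + 1) of each tested member minus the mean of the 24 pan-endothelial genes in the same library (vertical axis), with 1 point per library and, for each gene, HFD with P. cinnamivorans, HFD and control from left to right. HFD libraries stand above both other groups in Vcam1, Madcam1, Icam1, Icam2, Itga4, Itgb7 and Pecam1; Cdh5 lies between 0.37 and 1.06 with overlapping groups.

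Per FPKM of Cdh5, Vcam1 averaged 0.551 ± 0.12 in the P. cinnamivorans group, 1.04 ± 0.18 in HFD and 0.290 ± 0.087 in controls (SD, n = 3 each). Madcam1 averaged 0.147 ± 0.082 in the P. cinnamivorans group, 0.590 ± 0.17 in HFD and 0.174 ± 0.037 in controls per FPKM of Cdh5. HFD was above both other groups in every library for each of these ratios. Pecam1 over Cdh5 ran from 0.990 to 1.33 in the P. cinnamivorans group, from 1.498 to 1.71 in HFD and from 0.859 to 1.40 in controls.

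Markers of the blood and stromal cells that also carry the members differed between the groups, but not all alike. In HFD against control, called genes of the B cell, macrophage and T cell lists were all higher. Those of the follicle stroma, plasma cell and platelet lists went both ways. Of all genes tested, 19.7% were called in HFD against control and 12.1% in the P. cinnamivorans group against HFD. All 15 tested B cell genes were higher in HFD than in control and all 15 were lower in the P. cinnamivorans group than in HFD, with summed FPKM of 10.3 to 15.8 in the P. cinnamivorans group, 163 to 195 in HFD and 5.61 to 22.1 in controls. Of 16 follicle stroma genes, 13 were called higher and 3 called lower in HFD against control, and 1 was higher and 11 lower in the P. cinnamivorans group than in HFD. The lists share genes, so their counts are not independent. Cr2 and Fcer2a are also in the B cell list, Ccl19 and Cxcl13 in the gut-homing list, and Lta and Ltb among the NF-κB targets. The 3 lower genes were Prnp, Ltbr and Tnfrsf1a, and the last pair is also the lower pair of the venous list. The summed FPKM of the follicle stroma genes was 249 to 257 in the P. cinnamivorans group, 302 to 319 in HFD and 245 to 334 in controls. Cr2, which follicular dendritic cells and B cells carry, averaged 0.170 ± 0.069 FPKM in the P. cinnamivorans group, 3.42 ± 0.55 FPKM in HFD and 0.0749 ± 0.068 FPKM in controls. Of 16 macrophage and dendritic cell genes, 11 were called higher and 0 called lower in HFD against control, and 0 were higher and 11 lower in the P. cinnamivorans group than in HFD, with summed FPKM of 180 to 274 in the P. cinnamivorans group, 640 to 697 in HFD and 228 to 285 in controls. Of 20 T and NK cell genes, 12 were called higher and 0 called lower in HFD against control, and 0 were higher and 6 lower in the P. cinnamivorans group than in HFD, with summed FPKM of 107 to 117 in the P. cinnamivorans group, 135 to 161 in HFD and 50.9 to 108 in controls. Of 8 plasma cell genes, 5 were called higher and 1 called lower in HFD against control, and 1 was higher and 4 lower in the P. cinnamivorans group than in HFD. The part of these cells in the levels of Itga4, Itgb7, Vcam1, Madcam1, Icam1 and Pecam1 was not tested. Of 10 platelet genes 3 were tested, 1 higher (Pf4, which macrophages also make) and 1 lower (Itga2b) in HFD than in control. The summed FPKM of the platelet list was 9.09 to 15.7 in the P. cinnamivorans group, 20.7 to 27.4 in HFD and 9.77 to 15.0 in controls. In HFD, Pf4 averaged 18.2 FPKM of a mean sum of 23.6 FPKM. Gp1bb, named for its value, was the only gene of this list at 0 in every library.

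**Figure D5:**
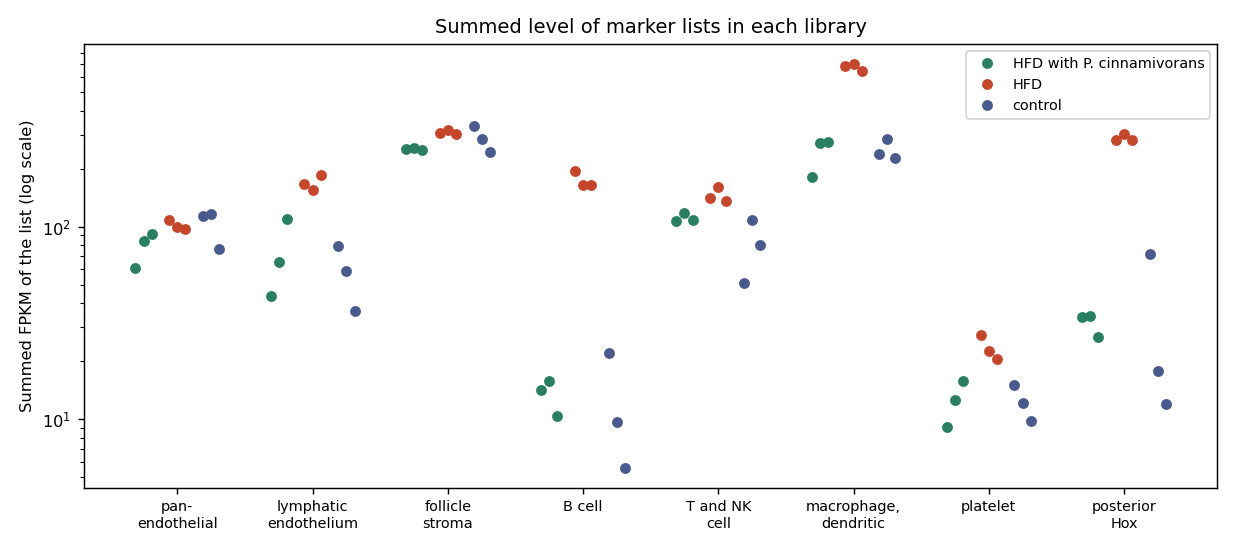
Summed FPKM of each marker list (vertical axis, log scale), with 1 point per library and, for each list, HFD with P. cinnamivorans, HFD and control from left to right. The B cell sums of the 3 HFD libraries lie between 163 and 195, above all 6 other libraries, while the pan-endothelial sums of the 3 groups range from 60.7 to 116.

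The other cell type lists are given beside the 19.7% of all genes called in HFD against control. Of 8 pericyte genes, 0 were called higher and 3 called lower in HFD against control, with summed FPKM of 151 to 240 in the P. cinnamivorans group, 54.5 to 59.8 in HFD and 113 to 303 in controls. Of 12 epithelial genes, 0 were called higher and 4 called lower in HFD against control. Of 10 fibroblast genes, 2 were higher and 0 lower. Of 10 smooth muscle genes, 0 were called by limma in any comparison (1 at an unadjusted p below 0.05, higher in the P. cinnamivorans group than in HFD), and control library 1 stood at a summed 7122 FPKM against 1388 and 1950 FPKM in the other controls. The fibroblast share was near that of all genes. The part of the pericyte and epithelial differences in the members' levels was not tested. Of 4 tested granulocyte genes, 1 was higher in HFD than in control and lower in the P. cinnamivorans group than in HFD (Csf3r).

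Levels per length put the members in a different order in each group. In the P. cinnamivorans group the order of mean FPKM was Itgb7 (4.92 ± 1.12), Pecam1 (4.66 ± 1.39), Cdh5 (4.03 ± 1.08), Icam2 (2.29 ± 0.71), Vcam1 (2.14 ± 0.24), Icam1 (1.82 ± 0.62), Itga4 (1.42 ± 0.39) and Madcam1 (0.622 ± 0.46). In HFD it was Itgb7 (9.61 ± 0.76), Pecam1 (8.69 ± 1.11), Vcam1 (5.67 ± 0.21), Cdh5 (5.56 ± 0.88), Icam1 (4.65 ± 0.23), Icam2 (3.99 ± 0.46), Itga4 (3.27 ± 0.39) and Madcam1 (3.22 ± 0.71). In controls it was Pecam1 (5.83 ± 0.86), Cdh5 (5.78 ± 2.13), Itgb7 (2.65 ± 0.83), Icam1 (2.01 ± 0.59), Vcam1 (1.55 ± 0.20), Icam2 (1.39 ± 0.25), Madcam1 (0.963 ± 0.25) and Itga4 (0.875 ± 0.23), all SD with n = 3. Neighbours with ranges that overlap, such as Pecam1 and Cdh5 in controls or Itgb7 and Pecam1 in HFD, are not separated by these libraries.

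Over the 9 libraries, the members other than Cdh5 followed each other, with Pearson's r of log2(FPKM + 1) from 0.65 to 0.98 in 21 pairs, against 0.16 to 0.72 in the 7 pairs with Cdh5. These are descriptions, with libraries and the HFD group shared by all pairs. Similar genes were then sought among tested genes, leaving out the members, pseudogenes, immunoglobulin and T cell receptor segments and unnamed gene models. Itga4, left out as a member, had an r of 0.981 with Itgb7, above those of Ldlrad3 and St8sia6 named below. In this search the genes most like Vcam1 were, by r, Tagap (0.99), Dennd4a and Ptpn22. For Madcam1 they were Mreg (0.98), Cxxc1 and Nmnat3, for Icam1 Pld4 (0.99), Slc9a9 and Svep1, and for Icam2 Gpr171 (0.99), Tmem154 and Ccl22. For Itga4 they were Derl3 (0.99), Pou2af1 and Tnfrsf17, for Itgb7 Atf7ip (0.98), Ldlrad3 and St8sia6, for Pecam1 Dph1 (0.99), Gna15 and Tnks1bp1, and for Cdh5 AU021092 (0.94), Fbln2 and Tssk6.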

How the data were processed

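RNA was extracted from colon with Trizol and sequenced from 9 libraries, 3 per group. The authors deposited 1 table of FPKM values. HISAT2 2.0.5 and the build GRCm39 are named in the submitters' processing notes; the counting tool is not given in the sources used here. Total reads are unknown, so fragments are the smallest whole numbers that fit the FPKM steps of a gene (tolerance 0.01), and Poisson intervals cover counting error only. Symbols were found for 52093 of 54491 identifiers. Genes that reached 0.5 FPKM in 3 or more libraries entered limma 3.58.1 (R 4.3.3) on log2(FPKM + 1) with a variance trend, all 9 libraries in 1 fit, no covariate, and Benjamini-Hochberg adjustment within each comparison. The fit was tested on simulated data. Every member is named. The rule for each other list was at most 4 genes, the called ones with the smallest p in HFD against control. Partners and counter-receptors of the members, such as Itgae, Itgb1 and Itgam, were named whatever their value. Outside this rule, Cxcl13 and Lta are named because lists share them. Cd44, Glycam1, Aldh1a1 and Gp1bb were named after their values had been seen. Members and lists were chosen with earlier results of these data known. Of 20 alternatives, 1 was added after seeing the data, and 9 left out a library each. One partner gene is not reported here.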

Additional observations from a re-analysis of the deposited data

How the results depend on the processing

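Across 20 other settings, Vcam1, Icam2, Madcam1, Itga4 and Itgb7 kept their calls in HFD against control, with Icam1 called in 17; Vcam1 and Madcam1 kept theirs in the P. cinnamivorans group against HFD in all 20, Icam1 and Itga4 in 17, Itgb7 and Pecam1 in 12 and Icam2 in 8. Members called in HFD against control were 5 to 6 with 1 library left out and 5 with the replicate block. Members called in the P. cinnamivorans group against HFD were 2 with the replicate block, 3 with scaling to the pan-endothelial mean (added after seeing the data) and 2 to 7 with 1 library left out. Against control they were 0 to 1 with 1 library left out, Itgb7 without control library 1. The cause was not tested. The sign of Cdh5 in HFD against control turned with TPM scaling (0.26), mitochondrial and immunoglobulin genes removed (0.23), upper quartile scaling (0.0319) and a pseudocount of 0.1 (0.0055). It also turned with some left-out libraries (0.0423 to 0.20), and the fits with 1 library left out ran from -0.27 to 0.20. The sign of Icam1 in the P. cinnamivorans group against control turned with mitochondrial and immunoglobulin genes removed (0.0475) and pan-endothelial scaling (0.0922). It also turned with some left-out libraries (0.0109 to 0.097), and the fits with 1 library left out ran from -0.27 to 0.097. With TPM scaling the median log2 difference of all genes was 0.22 in HFD against control, against -0.0011 without it, and -0.18 in the P. cinnamivorans group against HFD, against -0.0138 without it, and the share of calls that were higher was 78.2% against 53.8%, and 25% against 37.4%. With mitochondrial and immunoglobulin genes removed it was 75.9% in HFD against control and 73% against 23.7% in the P. cinnamivorans group against control, where upper quartile scaling gave 39.3%. With pan-endothelial scaling it was 60.7% in the P. cinnamivorans group against HFD. Genes called in HFD against control were 3535, 1985 with the replicate block, 1916 with pan-endothelial scaling and 1612 to 4527 with 1 library left out. In the P. cinnamivorans group against HFD they were 2174, 1288 with the block and 991 to 3603 with 1 library left out. Against control they were 198, 0 with the block and 0 to 1187 with 1 library left out, and 2 to 302 in the other settings apart from pan-endothelial scaling (1). The replicate numbers are not said to pair the libraries: same-numbered libraries of different groups had deviations correlated from -0.16 to 0.19 (6 pairs), against -0.17 to 0.15 for 21 pairs with different numbers. Sele and Selp did not pass the filter, and the fit with no filter called neither.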
